A study of Mus musculus with 8 samples.

Results

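Mouse ES (mES) cells that carried transcripts of Lefty1 or Lefty2 were examined in single-cell RNA-seq of untreated cells and of cells treated with CX-5461, an inhibitor of RNA polymerase I. The cells were selected on these measured values themselves. A kept cell had at least 5000 UMIs (unique molecular identifiers, each standing for 1 captured RNA molecule), at most 0.1 of its UMIs on mitochondrial (mt) genes and less than 0.1% of its UMIs on the collagen genes Col1a1, Col1a2 and Col3a1, and a Lefty cell was a kept cell with 3 or more UMIs of Lefty1 and Lefty2 together. This rule found 675 Lefty cells among 6542 kept cells, out of 8760 deposited barcodes. In the control library 17 of 2513 kept cells were Lefty cells, and in the CX-5461 library 658 of 4029.

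The labels describe ES cells derived from the inner cell mass and grown with MEF feeder cells, that is mouse embryonic fibroblasts, in LIF/2i medium, in both conditions. LIF/2i is a medium that holds ES cells in the naive state. One condition was untreated and the other received CX-5461, with no dose or time given for the single-cell samples in the sources used here. The labels list 4 samples per condition, but each condition came as 1 table with running cell numbers, so every comparison below is between cells of 1 library or between 2 libraries with no replicate. No test between conditions was therefore possible, no p-value is given, and every interval is a 95% interval that covers counting error only. The intervals are exact, except that those of differences of log2 ratios are normal intervals. Barcode sequences were not in the tables, so cells shared between libraries could not be counted.

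Nodal, a ligand of the TGF-beta family, binds activin receptors together with the co-receptor Tdgf1 (Cripto) and acts through Smad2, Smad3 and Smad4, with Foxh1 as a DNA-binding partner. Lefty1 and Lefty2 are secreted inhibitors of Nodal and are themselves genes that Nodal signalling switches on, which closes a negative feedback loop. In the embryo the loop sets the left-right axis and the extent of mesendoderm, and in ES cell cultures Lefty transcripts are known to vary from cell to cell.

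Lefty1 (ENSMUSG00000038793.8) lies on chr1:180935022-180938400 and Lefty2 (ENSMUSG00000066652.5) on chr1:180893108-180899103, both on the + strand of GRCm38, the build also called mm10. Their coding sequences are both 1107 bases long and were 91.9% identical position by position in the GENCODE transcripts. Near their 3′ ends the transcripts diverge. Of the 451 windows of 50 bases in the last 500 bases of each transcript, 11 from Lefty1 occurred in Lefty2 and 0 from Lefty2 occurred in Lefty1. The authors' table marked 0 counts of either gene as shared with other genes in either library.

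The Lefty cells of the CX-5461 library held more Lefty transcripts and were a larger share of the culture than those of the control library. They made up 16.3% of kept CX-5461 cells (15.2 to 17.5) and 0.676% of kept control cells (0.395 to 1.08). After each cell was thinned to 5000 UMIs the shares were 5.61% (4.92 to 6.37) and 0.0796% (0.00964 to 0.287). In the CX-5461 library a Lefty cell held a median of 5 Lefty UMIs (quartiles 4 and 9, highest 54), and in the control library a median of 3 (highest 8). At the threshold, 300 CX-5461 cells with 2 Lefty UMIs stayed outside and 150 with 3 were taken in, and in the control library 40 stayed outside and 10 were taken in. Depth was close between the libraries, with a median of 14674 UMIs per kept CX-5461 cell and 15714 per kept control cell.

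**Figure D1:**
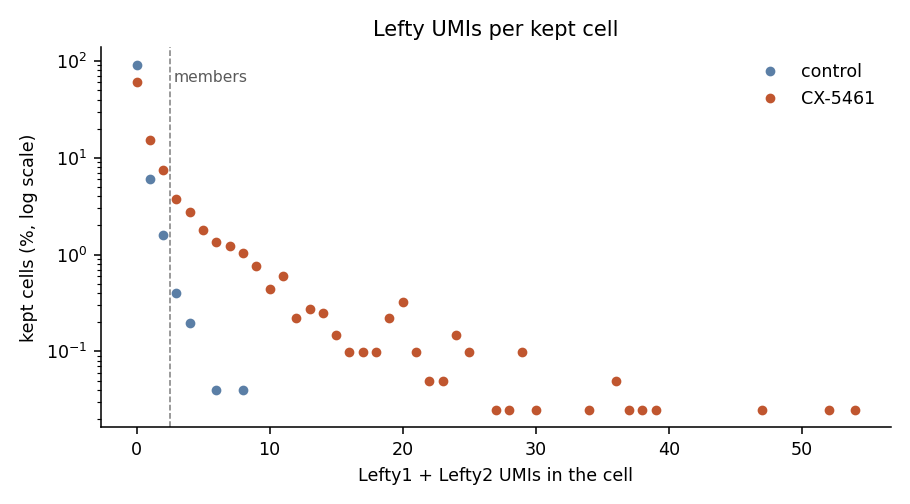
Share of kept cells (percent, log scale) by the number of Lefty1 and Lefty2 UMIs in the cell, for the control and CX-5461 libraries; each point is 1 number of UMIs and the dashed line marks the threshold of 3, above which cells are Lefty cells (members). Control cells end at 8 UMIs, while CX-5461 cells extend to 54, and 146 of them held 10 or more.

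The distribution in the CX-5461 library had a long tail. Its 658 Lefty cells carried 5106 of the 6316 Lefty UMIs of all kept cells (80.8%), and the 146 cells with 10 or more UMIs alone carried 2552 (40.4%). The 17 control Lefty cells carried 64 of 296 Lefty UMIs (21.6%), so most control transcripts were single UMIs in other cells.

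Fibroblast-like cells, which failed the collagen rule, gave the level of Lefty UMIs outside ES cells. In the control library 1 of 133 fibroblast-like cells (0.752%, 0.0190 to 4.12) held 3 or more Lefty UMIs at a median depth of 22994 UMIs. The share of 0.676% in kept control cells, at a median of 15714 UMIs, lay inside this wide interval. The 2 shares could therefore not be told apart. In the CX-5461 library the fibroblast-like share was 1.38% of 145 cells (0.167 to 4.89) at a median of 25543 UMIs, against 16.3% of the shallower kept cells. After thinning to 5000 UMIs, 0 of 133 and 1 of 145 (0.690%) fibroblast-like cells held 3 or more. The fibroblast-like level was not the same for both genes. In control fibroblast-like cells Lefty1 stood at 6.502 CPM (UMIs of the gene per 1000000 UMIs; 4.03 to 9.94) and Lefty2 at 0.619 (0.0750 to 2.24), whereas in kept control cells Lefty1 stood at 1.82 (1.44 to 2.27) and Lefty2 at 4.996 (4.35 to 5.71). Control Lefty1 was thus below the fibroblast-like level and control Lefty2 above it, while in the CX-5461 library both were above it.

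Lefty1 stood at 57.5 CPM (55.6 to 59.4) in kept CX-5461 cells, 31.6 times its control level (25.3 to 40.01). Lefty2 stood at 44.6 CPM (43.0 to 46.3), 8.93 times its control level (7.78 to 10.3). In fibroblast-like CX-5461 cells the same genes stood at 9.18 and 4.59 CPM.

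Lefty1 and Lefty2 transcripts were often in the same CX-5461 cell. Of 4029 kept cells 878 held Lefty1, 1203 held Lefty2 and 513 held both, where the product of the shares would be 262. Lefty1 was found in 42.6% of the cells with Lefty2 (39.8 to 45.5) and in 12.9% of the cells without it (11.7 to 14.2). Deeper cells have more chance to show either gene, so the same shares were taken at 5000 UMIs per cell, where they were 32.6% (28.8 to 36.5) and 8.78% (7.85 to 9.77). Across these 4029 cells, which share 1 library, Pearson's r was 0.39 and Spearman's rho 0.38 as deposited and 0.31 and 0.27 after thinning. Among control cells 15 held both genes where the product of the shares would be 4.07.

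Which gene led differed among Lefty cells. In the CX-5461 library 426 Lefty cells held both genes, 112 held Lefty1 alone and 120 held Lefty2 alone, and Lefty1 was the more abundant in 363 and Lefty2 in 265. The strongest cells were led by Lefty1. Cells with 3 to 5 Lefty UMIs had 107 CPM of Lefty1 (98.5 to 116) and 120 CPM of Lefty2 (112 to 130), and the 128 cells with more than 10 had 792 CPM of Lefty1 (755 to 830) and 300 CPM of Lefty2 (278 to 324). The highest Lefty1 count in a cell was 44 UMIs and the highest Lefty2 count was 20. The 17 control Lefty cells held 20 Lefty1 and 44 Lefty2 UMIs, with Lefty2 the more abundant in 11.

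**Figure D2:**
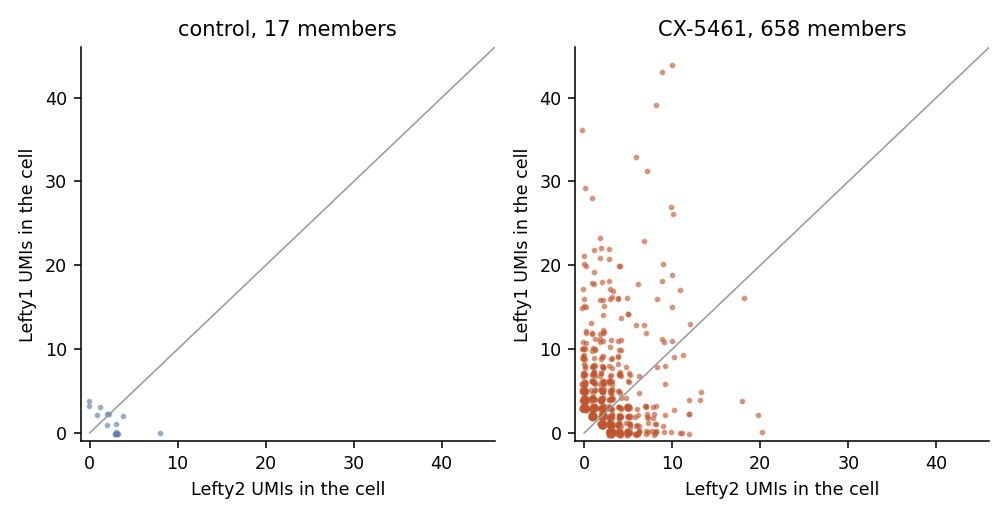
Lefty1 UMIs against Lefty2 UMIs in each Lefty cell of the control (17 cells) and CX-5461 (658 cells) libraries; points are jittered slightly and the line marks equal counts. Cells with the most UMIs in the CX-5461 library lie above the line, up to 44 Lefty1 UMIs.

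The Lefty cells were ES cells by their markers. Pou5f1 (Oct4) was found in 99.8% of CX-5461 Lefty cells and Zfp42 (Rex1) in 98.0%, and Pou5f1 stood at 763 CPM (747 to 780) against 21.1 (16.7 to 26.3) in fibroblast-like cells of that library. All 17 control Lefty cells held Pou5f1. In 7 of the 658 CX-5461 Lefty cells, less than 0.3% of UMIs fell on the 8 ES marker genes Pou5f1, Sox2, Nanog, Zfp42, Esrrb, Utf1, Dppa5a and Tdh.

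To ask what else differed in Lefty cells, each was paired with 1 kept cell of the same library that had 0 Lefty UMIs and a total within 10%. All 658 and all 17 found a partner, with median totals of 16180.5 and 16179.5 UMIs for CX-5461 and of 19502 and 19510 for the control. Genes with 200 or more UMIs over both cell groups were compared, 7272 for CX-5461 and 500 for the control, leaving out the Lefty and collagen genes that the rule used. A gene was called past the fold when its summed CPM differed by 1.5-fold or more. In CX-5461 cells 17 genes were past the fold higher (0.234%) and 52 lower (0.715%), and in control cells 6 higher (1.2%) and 19 lower (3.8%). The median log2 ratio of all genes compared was 0.01 for CX-5461 and 0.04 for the control, so the typical gene was near 0. Genes named by their rank here were picked by these same ratios, so their values are a description.

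Among protein-coding genes within 500 kb of the Lefty pair, 8 that are reported here reached 200 UMIs in the CX-5461 comparison, and their log2 ratios ran from -0.15 to 0.25. Sde2 had 2196 and 2092 UMIs (0.07; -0.02 to 0.15) and Tmem63a had 104 and 115 UMIs (-0.15; -0.55 to 0.25). H3f3a, which encodes histone H3.3, had 10400 and 10123 UMIs (0.04; -0.00 to 0.08). Mixl1, a mesendoderm gene of the same region, had 4 UMIs in Lefty cells and 5 in matched cells.

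Cells just below the threshold, which the rule did not take, gave a separate reading. Cells with 1 or 2 Lefty UMIs were paired with cells with 0 that had not served as partners above, which gave 907 pairs for CX-5461 and 192 for the control.

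Trh, the precursor of thyrotropin-releasing hormone, had the highest ratio of all genes with 200 UMIs in the CX-5461 library. Trh lies on chr6:92242061-92244650 on the - strand. It had 3254 UMIs, or 293 CPM (283 to 303), in Lefty cells and 1567 UMIs, or 141 CPM (135 to 149), in matched cells, a ratio of 2.07 (1.95 to 2.202). It was found in 74.5% of Lefty cells and 56.99% of matched cells. Its level was uneven, with a median of 138 CPM per Lefty cell, a ninth decile of 794 and a highest value of 3596. In cells with 1 or 2 Lefty UMIs its log2 ratio was 0.56 (0.47 to 0.64) for CX-5461 and 0.07 (-0.13 to 0.27) for the control, a difference of 0.49 (0.28 to 0.69). Over the Lefty counts of CX-5461 cells Trh stood at 137 CPM (133 to 141) with 0, 178 (169 to 186) with 1, 277 (262 to 292) with 2, 249 (236 to 262) with 3 to 5, 307 (288 to 326) with 6 to 10 and 385 (359 to 412) with more than 10. Control cells stood at 103 (99.8 to 106) with 0, 112 (99.9 to 125) with 1, 133 (110 to 160) with 2 and 206 (156 to 266) with 3 to 5. The 2 control cells with 6 to 10 stood at 135 (61.8 to 257). Among the 17 control Lefty cells Trh had 67 UMIs against 56 in matched cells (0.26; -0.27 to 0.80), and the log2 ratio was 0.99 when all control cells with 0 Lefty UMIs, weighted for depth, served as the reference.

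Of the 4 Nodal ligand and receptor genes compared in the CX-5461 library, 0 were past the fold and 3 of 4 lay above 0, with a median log2 ratio of 0.21 against 0.01 for all genes. Tdgf1, the co-receptor, had 3743 UMIs (337 CPM, 326 to 348) in Lefty cells and 2830 (255 CPM, 246 to 265) in matched cells, a log2 ratio of 0.40 (0.33 to 0.47). Nodal itself was scarce, with 120 and 95 UMIs (0.33; -0.07 to 0.74), and in cells with 1 or 2 Lefty UMIs it had 138 against 167 (-0.30; -0.63 to 0.04). Nodal thus did not differ beyond counting error in either reading, although the 128 cells with more than 10 Lefty UMIs had 16.1 CPM (11.2 to 22.4) against 10.6 (9.57 to 11.7) in cells with 0. Gdf3, a related ligand, had 1223 and 1145 UMIs (0.09; -0.03 to 0.21). The receptor genes Acvr1b (63 and 60 UMIs) and Acvr2b (77 and 57), and the ligand-processing proteases Furin (52 and 53) and Pcsk6 (211 and 222), had intervals that included 0.

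Of the 9 transducers and inhibitors compared, 0 were past the fold, 8 lay above 0, and the median was 0.17. Tgif1 and Tgif2, repressors that bind Smad proteins, had log2 ratios of 0.23 (0.11 to 0.35) and 0.45 (0.13 to 0.78). Skil, a Smad repressor that is itself induced by the pathway, had 99 and 65 UMIs (0.60; 0.14 to 1.08) and did not reach 200. The inhibitory Smad7 had 320 and 289 UMIs (0.14; -0.09 to 0.38), Pmepa1, a target that restrains Smad signalling, 207 and 177 (0.22; -0.07 to 0.52), and Smad2 131 and 128 (0.03; -0.33 to 0.39). Smad3 was lower, with 44 and 75 UMIs (-0.77; -1.34 to -0.22), below the minimum for a call. Foxh1 had 0 UMIs in Lefty cells and 1 in matched cells, too few to compare.

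Among mesendoderm genes linked to Nodal, Sp5 had 269 and 281 UMIs, Wnt3 114 and 87 (0.39; -0.03 to 0.81), the T gene (brachyury) 65 and 82, Eomes 26 and 36, and Gsc 20 and 15. Of the 2 genes of this list that were compared, 0 were past the fold and the median was 0.16. In the 5 BMP pathway genes compared, 0 were past the fold, with a median of 0.06. Id3, a BMP target, stood at 127 CPM in Lefty cells and 131 in matched cells (-0.04; -0.15 to 0.07), and Bambi, a decoy receptor, was the highest member at 0.27 (0.02 to 0.52).

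**Figure D3:**
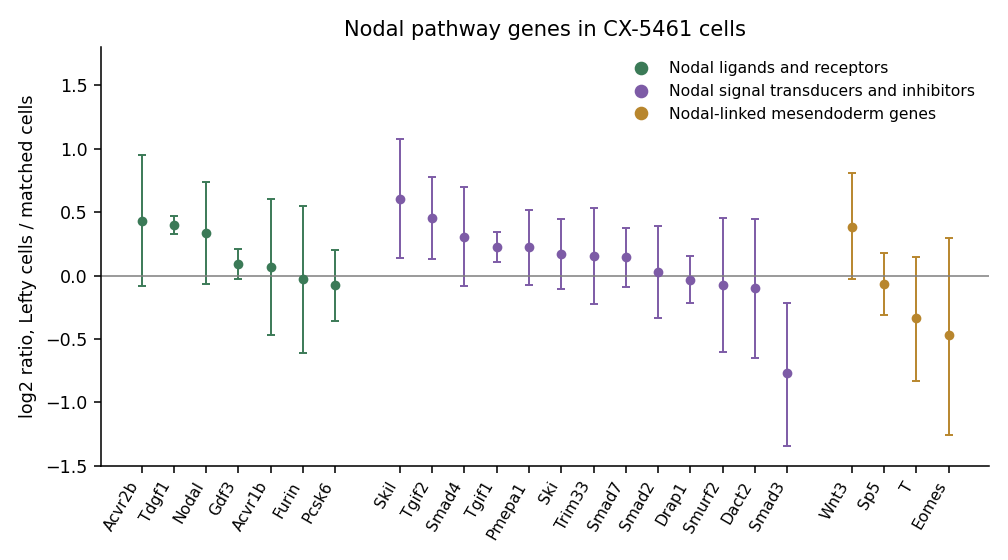
Log2 ratio of the Nodal pathway genes reported here that had 50 or more UMIs in the CX-5461 library, Lefty cells over matched cells, with 95% counting intervals; colours give the gene list. Tdgf1 at 0.40 has the narrowest interval, Tgif1, Tgif2 and Skil also lie above 0 and Smad3 below it, and the other intervals include 0.

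The 250 bases before the transcription start of Trh and Tdgf1, whose intervals lay above 0 in CX-5461 Lefty cells, are printed from RefSeq (GRCm38.p6). Searched on both strands were AATNNACA, a form of the Foxh1 motif, and CAGAC, a form of the Smad motif. Matches are in capitals. Of 32851 promoters of this length, 10.9% held the first and 42.2% the second.
Trh, chr6:92244651-92244900, - strand: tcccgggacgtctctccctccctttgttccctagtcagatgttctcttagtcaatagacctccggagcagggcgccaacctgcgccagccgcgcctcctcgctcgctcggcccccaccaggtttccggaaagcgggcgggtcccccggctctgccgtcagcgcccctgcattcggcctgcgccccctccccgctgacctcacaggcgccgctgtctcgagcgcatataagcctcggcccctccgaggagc
Tdgf1, chr9:110946159-110946408, - strand: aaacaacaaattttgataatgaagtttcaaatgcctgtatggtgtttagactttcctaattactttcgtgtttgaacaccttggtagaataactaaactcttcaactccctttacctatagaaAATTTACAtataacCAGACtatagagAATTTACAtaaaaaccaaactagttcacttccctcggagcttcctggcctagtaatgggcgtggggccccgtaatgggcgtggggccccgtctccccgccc
The Tdgf1 window held 2 matches of the first motif and 1 of the second, which do not overlap, and the Trh window held 0 of either. A match is only a description of these letters.

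The 3 kinds of CX-5461 Lefty cell differed in the genes that went with them. Trh stood at 181 CPM (162 to 202) in the 112 cells with Lefty1 alone, 310 (287 to 336) in the 120 with Lefty2 alone and 316 (303 to 329) in the 426 with both. Tdgf1 followed the same order, at 265 (242 to 290), 351 (325 to 378) and 351 (337 to 365). In matched cells Trh was at 141 and Tdgf1 at 255. Dppa3 (Stella), a gene of naive ES cells and germ cells, was lowest with Lefty2 alone, at 17.3 CPM (12.03 to 24.01), and stood at 38.8 (30.3 to 49.1) with Lefty1 alone and 36.3 (32.0 to 40.9) with both, whose intervals overlap. All CX-5461 cells with 0 Lefty UMIs had 19.5 CPM of Dppa3 (18.1 to 20.99). The kinds also differed in Lefty count, with medians of 5 UMIs for Lefty1 alone, 4 for Lefty2 alone and 7 for both. The part of that count in these differences was not tested.

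Among the 10 highest protein-coding genes of the CX-5461 comparison, besides Trh, were Dppa3 with 369 and 228 UMIs (0.69; 0.45 to 0.94) and Xbp1, a regulator of the unfolded protein response, with 197 and 124 UMIs (0.66; 0.33 to 1.00). Also among them were the tRNA methyltransferase gene Trmt5 at 0.79, Cnpy1 at 0.76, the claudin gene Cldn3 at 0.68, the homeobox gene Rhox9 at 0.67, Dmtn at 0.67 and the potassium channel gene Kcnk1 at 0.65, each with 129 to 231 UMIs in Lefty cells. Dppa3 was uneven over the Lefty counts: 19.5 CPM (18.1 to 20.99) in cells with 0, 26.7 (22.6 to 31.4) with 3 to 5 and 55.2 (45.8 to 66.1) with more than 10. In cells with 1 or 2 Lefty UMIs, 14 of the 17 higher genes lay above 0 with a median of 0.13, and 0 of 17 were past the fold. Of the 52 lower genes, 47 reached the minimum there, of which 38 lay below 0 and 15 were past the fold. Over all 8145 genes compared there, 8 were past the fold higher and 55 lower.

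**Figure D4:**
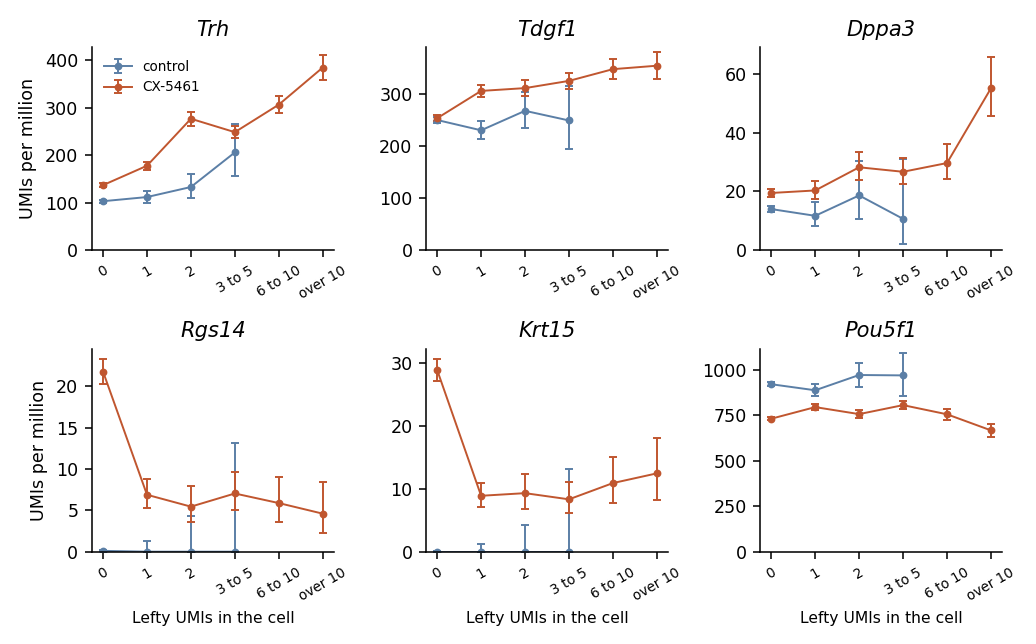
Level of 6 genes (CPM, with exact 95% Poisson intervals) in kept cells grouped by their number of Lefty UMIs, for the control and CX-5461 libraries; groups under 10 cells are left out. In CX-5461 cells Trh, Tdgf1 and Dppa3 have their lowest level at 0 Lefty UMIs and their highest above 10, Krt15 is at 28.8 in cells with 0 UMIs and between 8.31 and 12.4 in cells with any, and Pou5f1 lies between 667 and 806.

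Genes lower in Lefty cells fell into separate sets. Rgs14, a regulator of G protein signalling, had 69 UMIs in Lefty cells and 192 in matched cells (-1.48; -1.90 to -1.08), and the keratin gene Krt15, chosen after its values were seen, had 110 and 254 (-1.21; -1.55 to -0.88). The highest count in a matched cell was 9 UMIs of Rgs14 and 12 of Krt15. In cells with 1 or 2 Lefty UMIs the values were 93 against 273 for Rgs14 and 130 against 341 for Krt15. Rgs14 stood at 21.8 CPM (20.3 to 23.4) in CX-5461 cells with 0 Lefty UMIs and at 4.603 to 7.05 in every group with 1 or more. Krt15 was not found in the 2513 kept control cells, and Rgs14 had 4 UMIs there, against 1285 and 951 UMIs in kept CX-5461 cells.

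A second set was carried by few cells of the reference. Genes of the 2-cell-like (2C) state were lower, with 358 UMIs of the 2C list in Lefty cells and 731 in matched cells. Cells with 20 or more such UMIs numbered 4 among Lefty cells, 8 among matched cells and 30 among all 2461 cells with 0 Lefty UMIs, 1 matched cell alone held 217 of the UMIs, and 1 Lefty cell alone held 161. The 1 gene of this list with 200 UMIs, Gm8300, had 207 and 341 (-0.72; -0.98 to -0.47) and was past the fold lower, with 111 of the 207 in 1 Lefty cell and 113 of the 341 in 1 matched cell. Its direction turned after cells were thinned to 5000 UMIs, at 2.12, and without 2C-like cells it was at -0.39, within the fold. Zscan4c had 20 and 58 UMIs and Zscan4d 22 and 59. Of the 10 lowest protein-coding genes, Gm21761, Zscan4-ps3 and BB287469 were at -3.34, -1.73 and -1.69 with up to 69, 83 and 104 UMIs in 1 matched cell. The histone gene Hist1h2bc was at -1.56 and the cyclin gene Ccnd2 at -1.51.

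The next set had high counts in few matched cells. Acta2 (smooth muscle actin) had 9 and 191 UMIs (-4.41; -5.56 to -3.46), of which 100 sat in 1 matched cell. Ccl2, a chemokine, was at -4.37, Ftl1, the ferritin light chain, at -2.81, Tpm2, a tropomyosin, at -1.56, and Lgals1, a galectin, at -0.87, with up to 86, 1719, 75 and 446 UMIs in 1 matched cell. Of the 4 genes of the fibroblast list compared, 2 were past the fold lower and 0 higher, with a median of -0.71. Summed over the 18 genes of the list, the level was 356 CPM in Lefty cells and 550 in matched cells. As an alternative decided after the data were seen, cells with less than 0.3% of UMIs on ES markers were left out. This removed 7 Lefty cells and 67 of the 2461 cells with 0 Lefty UMIs, of which 14 had served as matched cells. With them left out, 34 genes were past the fold lower. Lgals1 was then at 0.21, Tpm2 at 0.04 and Ccnd2 at 0.66, while Trh (1.04), Rgs14 (-1.49) and Krt15 (-1.17) stayed close to their values above.

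In CX-5461 cells the main pluripotency genes were near their level in matched cells. Pou5f1 had 8476 UMIs in Lefty cells and 8389 in matched cells (0.01; -0.03 to 0.06), Nanog 2648 and 2507 (0.08; -0.00 to 0.15), Sox2 1602 and 1494 (0.10; -0.01 to 0.20), Zfp42 4967 and 4878 (0.02; -0.03 to 0.08) and Esrrb 516 and 545 (-0.08; -0.26 to 0.09). Zfp42 and Esrrb belong to the list of naive genes. Of the 13 genes compared on the separate list of general pluripotency genes, 0 were past the fold and 13 lay above 0, with a median of 0.13. Of the 20 naive genes compared 1, Dppa3, was past the fold higher and 0 lower, with a median of 0.07. Nr0b1 (Dax1) at 0.43 (0.28 to 0.58) and Prdm14 at 0.51 (0.17 to 0.84) followed Dppa3, and Klf4, a target of LIF, was at -0.13. Of the 6 formative and primed genes 0 were past the fold, with a median of 0.06. Dnmt3l was the lowest at -0.40, Otx2 had 18 and 11 UMIs and Fgf5 4 and 1.

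Stress and growth lists were also close to the reference. Of the 18 ER and integrated stress genes 1, Xbp1, was past the fold higher and 0 lower, with a median of 0.10. The chaperone gene Hspa5 (BiP) had 1813 and 1474 UMIs (0.30; 0.20 to 0.40), and Trib3 was the lowest at -0.42. Of the 21 p53 target genes 0 were past the fold and 17 lay below 0, with a median of -0.08, Fas being the lowest (-0.47; -0.83 to -0.11) and Pmaip1 (Noxa) the highest (0.24; -0.07 to 0.56). Of the 6 FGF and ERK response genes 1, Ier3, was past the fold lower (-0.65; -1.03 to -0.28) and 0 higher, with a median of 0.10. In the lists for WNT response (6 genes, median 0.02), S phase (23 genes, 0.09), G2/M (26 genes, 0.09), glycolysis and hypoxia (17 genes, 0.08), housekeeping (11 genes, 0.01), trophectoderm (2 genes, 0.01) and neural ectoderm (1 gene, 0.24), 0 genes were past the fold. Within these, Slc2a1, a glucose transporter, was at 0.36 (0.21 to 0.51) and the mitotic kinase gene Plk1 at 0.31 (0.13 to 0.50). No primitive endoderm gene reached 200 UMIs, and the 16 genes together had 308 and 356 UMIs.

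Cell quality measures were matched or nearly so in the CX-5461 library. The median mt share was 3.98% in Lefty cells and 3.96% in matched cells, the ribosomal protein share 23.5% and 23.8%, and the number of genes found in 5000 UMIs 1909 and 1888. The median share on G2/M genes was 0.344% and 0.322%, and on p53 targets 0.332% and 0.339%. Quartile ranges overlapped in each case.

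In the control library, with 17 pairs, the 10 lowest of the 500 genes compared were led by Acta2 (1 and 275 UMIs), S100a6 (7 and 496), Ftl1 (40 and 1038), Rps2 (45 and 354) and Lgals1 (71 and 433). The highest matched cell held 227 of the Acta2 UMIs and 398 of the S100a6 UMIs, and 2 of the 17 matched cells were low in ES markers. The 10 highest were led by Spp1 (osteopontin; 225 and 109 UMIs, log2 ratio 1.05), Ckb (creatine kinase; 151 and 79, 0.94) and Apoe (137 and 72, 0.93), but in control cells with 1 or 2 Lefty UMIs Spp1 was at -0.08. Without the cells low in ES markers, 9 genes and not 19 were past the fold lower. Among the 500 genes compared in both libraries, 6 were past the fold higher in the control and 0 in CX-5461. A shared higher gene was therefore not possible. Lower were 19 in the control and 4 in CX-5461, and these 4, Acta2, Rps2, Ftl1 and Lgals1, were lower in both. Of the Nodal pathway genes, Tdgf1 had 89 and 66 control UMIs (0.43; -0.04 to 0.92), with 0.00 (-0.13 to 0.14) in control cells with 1 or 2 Lefty UMIs. That last value was lower than the 0.21 of the CX-5461 library by 0.21 (0.06 to 0.36). Of the lists, 4 or more genes reached the minimum in the control library only for glycolysis and hypoxia (6 genes, median 0.07) and housekeeping (6 genes, 0.12), with 0 past the fold. In 3 naive pluripotency genes the median was 0.48, and Pou5f1 had 348 and 261 UMIs (0.42; 0.18 to 0.65), with a difference of log2 ratios, CX-5461 minus control, of -0.41 (-0.64 to -0.17). That difference was not seen in cells with 1 or 2 Lefty UMIs. There Pou5f1 was at -0.03 (-0.10 to 0.04) in the control and 0.03 (-0.00 to 0.07) in CX-5461.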

How the data were processed

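Cells were labelled as 4 samples of untreated and 4 of CX-5461-treated mES cells, profiled with the 10x Genomics 3′ system. Whole-number UMI counts, 1 table per condition, were deposited by the authors, who followed a published droplet pipeline. The submitters' processing notes name mm10 and Seurat 2.3.4. The filter stated in the study's methods was at least 500 UMIs and at most 0.2 on mitochondrial genes. Together with the collagen rule used here, it would keep 3626 control and 4551 CX-5461 barcodes. Neither the study's filter nor the stated limit on genes found in under 3 cells is applied in the tables. Bowtie is named in the methods as the aligner of that pipeline, with HISAT2 in its place for repeats, and the version behind the gene counts is not given in the sources used here. Of 54146 gene IDs, 54079 matched GENCODE M21, which gave symbols and positions.

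Totals were 49610287 UMIs in 3838 control and 69841836 in 4922 CX-5461 barcodes. Lefty cells were paired with the nearest cell in total UMIs without reuse. Summed UMIs were divided by total UMIs. Ratios carry exact conditional binomial intervals, levels exact Poisson intervals and shares exact Clopper-Pearson intervals. Differences of log2 ratios carry normal intervals from counting error. The intervals of ratios, levels and differences treat each UMI as independent, and so leave out the spread between cells of a library. Cells of 1 library are not replicates, so the intervals also understate the uncertainty between cultures. No doublet caller was run. The deepest 5% of Lefty cells were left out as an alternative. Scripts used Python 3.11.15, numpy 2.4.6, scipy 1.17.1 and pandas 2.3.3 and were tested on simulated data. Genes were named by rank (up to 10 highest and 10 lowest protein-coding genes per library), as past the fold in both libraries, as the extremes of each list, as Nodal pathway genes with 50 or more UMIs, or from a short fixed list; Krt15 and the genes named from other settings were chosen after their values were seen. The cells, lists and rules were chosen with earlier results of these data known. Some genes and sequences that these rules name are not reported here.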

Additional observations from a re-analysis of the deposited data

Results flagged for a closer look

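Lefty transcripts were also found in CX-5461 barcodes that the filters left out. Of 413 such barcodes with at least 5000 UMIs and more than 0.1 of them on mt genes, 100 (24.2%, 20.2 to 28.6) held 3 or more Lefty UMIs, and their Lefty level was 323 CPM (303 to 344), against 102 CPM (99.6 to 105) in kept cells. Their median depth was 6651 UMIs. In the control library 9 barcodes were left out in this way, and 0 of them held 3 or more, with an exact upper limit of 33.6%. Of 335 CX-5461 barcodes under 5000 UMIs, 38 (11.3%, 8.15 to 15.2) held 3 or more Lefty UMIs, at 262 CPM (235 to 292), and in the control library 1 of 1183 did (0.0845%, 0.00214 to 0.470). These cells were flagged because they lie outside the cells kept for the values of the report and show the signal above the control barcodes left out in the same way. The wider filter of the study, tried as an alternative with the collagen rule kept, takes in part of them. It gave 757 Lefty cells among 4551 kept CX-5461 cells. Among the CX-5461 barcodes that passed the depth and mt rules, fibroblast-like cells included, the Lefty level was 16.8 CPM (9.16 to 28.1) at an mt share under 0.02, 92.8 (89.6 to 96.1) at 0.02 to 0.04, 101 (96.9 to 104) at 0.04 to 0.06, 164 (142 to 188) at 0.06 to 0.08 and 219 (169 to 279) at 0.08 to 0.1. The share of cells with 3 or more Lefty UMIs had no such order, at 1.89%, 16.2%, 15.2%, 25.8% and 17.6%. These groups held 53, 2066, 1924, 97 and 34 cells, and the interval of the last was 6.76 to 34.5%. Their median depths were 15237, 15762.5, 14072, 11568 and 8059 UMIs. A limit of 3 UMIs is harder to reach in shallower cells, so the shares are not comparable across these groups. The part of the mt share in the Lefty level was not tested.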

How the results depend on the processing

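No paired analysis was possible because the tables give no sample of origin for any cell, and for the same reason no replicate could be left out. The settings at 1 or more UMIs, with the ES marker minimum, without 2C-like cells and in cells with 1 or 2 Lefty UMIs were chosen after seeing the data. Genes under 50 UMIs in a setting (40 for the genes followed most closely) have no value there, and no difference between libraries per list was computed. The cause of the changes below was not tested. With 2 or more Lefty UMIs, 57 control cells (2.27%) and 23.8% of CX-5461 cells were Lefty cells, 11 CX-5461 genes were past the fold higher, the CX-5461 fibroblast list median was -0.51 and control Hist1h2ad was at 0.0684. With 5 or more, the cells numbered 2 (0.0796%) and 397 (9.85%), 4 control and 30 CX-5461 genes were lower, and the fibroblast median was -0.59. With 1 or more, they numbered 209 (8.32%) and 1568 (38.9%), 3 control genes and 9 CX-5461 genes were higher, 83 CX-5461 genes were lower, the fibroblast median was -0.33 and control Fkbp3 was at -0.0172. After thinning, they numbered 2 (0.0796%) and 226 (5.61%), and 0 control genes were higher and 0 lower. Few if any genes could reach the minimum of 200 UMIs in 2 thinned control Lefty cells and their partners. These control counts of 0 therefore do not show that differences were lost. In thinned CX-5461 cells 5 genes were higher and 8 lower, the housekeeping median was 0.0882 and Gm8300 was at 2.12. Fewer genes also reach the minimum with 5 or more Lefty UMIs. The numbers compared in these 2 settings are not given here, so their counts cannot be read as shares.

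Against all weighted cells with 0 Lefty UMIs, 8 control genes were lower, 8 CX-5461 genes were higher and the control housekeeping median was 0.28. The fibroblast median was -0.40 with 2 matched cells per Lefty cell, -0.37 with matching on mt share and -0.50 without the deepest 5%, where 2 control genes were higher. With a gene minimum of 100 UMIs, 40 control genes were higher and 40 lower, and 69 and 132 CX-5461 genes. With 500 UMIs the counts were 1 and 5, and 4 and 9. With a fold of 2 they were 1 and 9, and 1 and 17. The gene minimum changes how many genes are compared. Those numbers are not given here, so the counts at 100 and 500 UMIs cannot be read as shares. With the ES marker minimum, 9 control and 34 CX-5461 genes were lower, control Lgals1, Tuba1a and Vim were at 0.20, 0.24 and 0.35, and CX-5461 Ccnd2, Lgals1 and Tpm2 at 0.66, 0.21 and 0.0419. In cells with 1 or 2 Lefty UMIs, 1 control gene and 8 CX-5461 genes were higher. There control Acta2, Fkbp3, Gsta4, Hist1h2ad and Spp1 were at 0.36, -0.0701, -0.0344, 0.0227 and -0.0773, and CX-5461 Ccnd2, Ftl1, Ier3, Kcnk1, Lgals1, Tpm2, Trmt5 and Zscan4-ps3 at 0.21, 0.0733, 0.14, -0.0907, 0.11, 0.15, -0.0442 and 0.18.

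In the CX-5461 library Trh lay between 0.56 and 1.24 and was past the fold in 18 of 19 alternatives, with the lowest value in cells with 1 or 2 Lefty UMIs. Dppa3 lay between 0.07 and 1.08 (15 of 19), Krt15 between -1.46 and -1.09 and Rgs14 between -1.75 and -1.39 (18 of 18 each). The 15 for Dppa3 includes the alternative with a fold of 2, although Dppa3 did not reach a fold of 2 there. Control Trh lay between 0.07 and 0.99 (2 of 17). These counts used the 1.5-fold limit in every alternative. The alternatives that changed only the gene minimum or the fold left each ratio as in the main comparison. They could not change these counts.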
